A study of Mus musculus with 71 samples.

Results

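Thyroid hormone reaches its receptors in the brain only after it has been carried into cells and converted there, and the 9 genes described here cover that route. They are Dio2 and Dio3, the deiodinases that activate and inactivate the hormone, the transporter Slco1c1, the cytosolic binding protein Crym, the receptors Thra and Thrb, the receptor coregulators Ncoa1 and Ncor1, and Hr, a target of the hormone that is itself a corepressor. They were chosen by gene symbol, and each matched 1 of the 57010 genes of the count table, so the set was 9 of 57010. All 9 passed the filter of at least 10 counts over all mice and were among the 30141 genes tested.

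The counts came from hippocampi of 71 wild-type male C57BL/6J mice that received normal chow (NC) or a high fat-high sucrose diet (HFS) for 12 weeks from 3 weeks of age. Mice of the NC ad lib and of the HFS ad lib groups could eat at any hour, whereas HFS TRF mice (time-restricted feeding) had the HFS diet only around the dark phase during the last 4 weeks. On each diet, mice were taken from the home cage in the day (HC zt3) or 1 h after a 10-min object recognition memory training (ORM+1 h) in the first experiment, and from the home cage in the night (HC zt15) or 12 h after training (ORM+12 h) in the second. Each of the 12 groups of diet and condition held 6 mice, except HFS TRF at HC zt15 with 5, and each library was 1 mouse. The RNA was purified by pS6-TRAP, in which an antibody against the phosphorylated ribosomal protein S6 pulls down ribosomes with their mRNA, so the values report mRNA on phosphorylated ribosomes of the whole dissected tissue. In such bulk material, fewer cells of a type and less captured RNA per cell cannot be told apart.

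The thyroid gland releases mainly thyroxine (T4), which binds the nuclear receptors weakly. In brain, T4 enters through transporters such as the one encoded by Slco1c1, and the type 2 deiodinase (Dio2), which is made mainly by astrocytes and by tanycytes of the hypothalamus, converts it to the active hormone T3. The type 3 deiodinase (Dio3), found mainly in neurons, inactivates both hormones. Crym (mu-crystallin) holds T3 in the cytosol in an NADPH-dependent manner. T3 then binds receptors encoded by Thra, the main receptor gene of the brain, and Thrb. Without T3 the receptors hold corepressor complexes built on proteins such as Ncor1 at target genes, and with T3 they exchange them for coactivators such as Ncoa1. Hr (hairless) is a gene that T3 induces in brain, and its protein acts as a corepressor of the same receptors.

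On GRCm39, Dio2 (ENSMUSG00000007682) lies at chr12:90691322-90705819 on the minus strand with 6426 exon bases, and Dio3 (ENSMUSG00000075707) at chr12:110245502-110247531 on the plus strand with 2030 exon bases. Slco1c1 lies at chr6:141469705-141516710 and Crym at chr7:119785530-119801514. The receptors are at chr11:98629109-98661924 (Thra) and chr14:4429815-4809435 (Thrb), and the coregulators at chr12:4297361-4557712 (Ncoa1), chr11:62206297-62349368 (Ncor1) and chr14:70789652-70811002 (Hr). All 9 are protein-coding, and each value is summed over the exons of the whole gene. Of the exon bases of Thra, 21.4% are shared with Nr1d1, a clock gene read from the opposite strand, and 19.0% of those of Ncor1 are shared with Ttc19. The library kit keeps strand, but the strand setting of the counting is not given in the sources used here. Nr1d1 averaged 102 to 173 CPM by group against 1660 to 2450 CPM for Thra, and it did not pass the test at ORM+1 h or ORM+12 h on any diet but was higher at HC zt15 than at HC zt3 on each (0.42, 0.37 and 0.41 on the log2 scale). Ttc19 is nearer to its partner in level, with 289299 counts over all mice against 754320 for Ncor1, and its log2 differences between conditions lay between -0.15 and 0.15, none of which passed with all mice in the fit.

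The sequences just before the start sites of the deiodinase genes are shown because most of the calls between conditions were of Dio2 and Dio3, and Dio2 is known as a cAMP-responsive gene in brown adipose tissue. They were cut from RefSeq promoter windows and matched exactly to GRCm39, Dio2 at chr12:90705820-90706062 on the minus strand (243 bases, 41.6% G or C) and Dio3 at chr12:110245414-110245501 on the plus strand (88 bases, 79.5% G or C). The capitals mark a match to the cAMP response element TGACGTCA, whose first base lies 88 bases before the annotated start of Dio2.
Dio2: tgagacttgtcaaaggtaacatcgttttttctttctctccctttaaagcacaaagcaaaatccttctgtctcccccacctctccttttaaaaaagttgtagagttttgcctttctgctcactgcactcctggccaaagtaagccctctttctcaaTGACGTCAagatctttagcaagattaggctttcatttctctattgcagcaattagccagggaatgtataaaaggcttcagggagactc
Dio3: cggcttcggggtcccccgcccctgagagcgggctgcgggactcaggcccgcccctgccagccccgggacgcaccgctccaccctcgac
The same 8 letters occur on either strand in 588 of 32851 windows that span 250 bases before to 50 bases after a start (1.79%), and the Dio3 window has no match. Of the other motifs searched on both strands, the E-box CACGTG is in 7.15% of windows, the single receptor half-site AGGTCA in 16.3% and a direct repeat of that half-site with 4 spacer bases between, which a half-site match includes, in 0.0152%. The E-box is in the Slco1c1 window, 20 bases after the RefSeq start, which lies inside the gene as annotated above, and in 1 Thrb window, and the half-site is in another Thrb window. Windows were at hand for 6 of the 9 genes, with none for Thra, Crym and Hr. A match is a description of the letters and not evidence that a factor binds.

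Total counts per mouse ranged from 34698914 to 62758570 (median 53999489). Per length, Thra was by far the most abundant member, with a mean of 250 ± 33.5 RPKM (counts scaled for library size and exon length, SD, n = 71), followed by Crym at 96.6 ± 17.8. Ncoa1 averaged 16.8 ± 1.66 and Ncor1 10.2 ± 0.887 RPKM. The other 5 were lower, Dio2 at 4.96 ± 2.09, Thrb at 4.49 ± 0.502, Slco1c1 at 3.93 ± 3.27, Hr at 2.40 ± 0.413 and Dio3 at 0.922 ± 0.612 RPKM. Thus the level of Thra was 55.7 times that of Thrb, and the level of Dio2 was 5.38 times that of Dio3. The Thra value takes together the isoforms Thra1 and Thra2, both abundant according to the paper, which describes the Thra2 product as dominant-negative. It is therefore not a measure of active receptor alone. The order by spread was different from the order by level. Between the highest and the lowest mouse, the level differed 27.6-fold for Slco1c1, 17.9-fold for Dio3 and 6.85-fold for Dio2, but from 1.46-fold (Ncor1) to 2.13-fold (Hr) for the other 6. Dio3 rested on a median of 87 counts per mouse (18 to 328), Hr on 890, Slco1c1 on 1091, Dio2 on 1778 and Thra on 105815. When the 12 groups were ordered by mean CPM (counts scaled to a common library size with TMM factors), no member had a pair of neighbouring groups that differed by more than their SD.

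Several mice stood apart from their group in ways that bear on Dio2. Among HFS ad lib HC zt3 mice, replicates 5 and 6 had 30.7 and 32.2 CPM of Dio2, against 9.94 to 13 in the other 4. Their Fos, an immediate early gene, was at 25.1 and 29.4 CPM against 6.56 to 10.5, and their 8 astrocyte markers summed to 3600 and 3310 CPM against 1070 to 1330. HFS TRF HC zt3 replicates 5 and 6 deviated in the same direction but less, with 24.3 and 20.5 CPM of Dio2 against 9.63 to 13.1, Fos at 16.2 and 15 CPM against 8.41 to 11, and astrocyte markers at 2440 and 2280 CPM against 979 to 1430. The 6 immediate early genes named below, Fos among them, summed to 668 and 639 CPM in the 2 HFS ad lib mice against 360 to 468. In the 2 HFS TRF mice that sum did not stand apart, at 425 and 444 CPM against 369 to 453. The fits were repeated without these mice, 1 diet at a time, a choice made after seeing the data, and the members whose calls then changed are named below, with the changes in the astrocyte and pathway lists. As a check of the training labels, the immediate early genes Fos, Egr1, Arc, Npas4, Fosb and Nr4a1 were read first, and 6 of 6 rose at ORM+1 h on each diet, while 0 of 6 changed at ORM+12 h by edgeR. Their mean sum was also higher in untrained mice at HC zt15 than at HC zt3. It was 624 ± 214 against 432 ± 48.6 CPM on NC ad lib (SD). On HFS ad lib it was 713 ± 210 against 477 ± 143 CPM, and on HFS TRF 742 ± 192 against 418 ± 32.7 CPM. Fos itself had a log2 fold change of 2.70 on NC ad lib at ORM+1 h (adjusted p = 2.1e-08), of 2.32 on HFS ad lib (adjusted p = 1.7e-06) and of 2.73 on HFS TRF (adjusted p = 1.7e-08). The tissue carried markers of hippocampal subfields (583 to 923 CPM summed over 7 genes) and of neurons (7330 to 9590 CPM over 7 genes, 48.5% of it Snap25) in every mouse.

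The first comparison asked which of the 9 genes change in the early phase after training, ORM+1 h against HC zt3. Dio2 rose on all 3 diets, 2.38- to 3.41-fold, and was the only member to do so. Dio3 and Thra fell in NC ad lib mice and Crym fell in HFS TRF mice. Thrb, Ncoa1, Ncor1, Hr and Slco1c1 did not pass the test on any diet. In all, 3 of 9 members changed on NC ad lib (1 higher, 2 lower), where 5.73% of all genes did (4.03% higher, 1.7% lower). On HFS ad lib 1 of 9 rose, beside 1.23% of all genes changed (0.74% higher, 0.491% lower), and on HFS TRF 1 of 9 rose and 1 fell, beside 2.87% (2.24% higher, 0.624% lower). The median log2 fold change of the 9 was -0.06, -0.03 and 0.12, where that of all genes was 0.0, 0.0 and -0.006. Here and throughout, a member is said to have changed where the quasi-likelihood test of edgeR gave an adjusted p under 0.05.

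For Dio2, NC ad lib mice had 12.0 to 19.3 CPM at HC zt3 (median 13.1) and 40.5 to 66.0 CPM at ORM+1 h (median 44.2). Values in HFS ad lib mice were 9.94 to 32.2 CPM (median 12.2) and then 33.1 to 52.6 CPM (median 43.4), and HFS TRF mice 9.63 to 24.3 CPM (median 11.7) and then 30.7 to 49.8 CPM (median 41.0). On every diet the lowest trained mouse thus lay above the highest home cage mouse. The log2 fold change was 1.77 ± 0.24 (SE) on NC ad lib (3.41-fold, adjusted p = 5.3e-07), 1.25 ± 0.24 on HFS ad lib (2.38-fold, adjusted p = 0.00092) and 1.49 ± 0.24 on HFS TRF (2.81-fold, adjusted p = 2.5e-05). In an edgeR model of the 2 HFS ad lib groups alone, the HFS ad lib value was also 1.25 but did not pass (adjusted p = 0.056). Without the 2 HFS ad lib HC zt3 mice that stood apart, the HFS ad lib value was 1.91 ± 0.25 (adjusted p = 1.5e-07), and without the 2 such HFS TRF mice the HFS TRF value was 1.94 ± 0.27 (adjusted p = 8.8e-07). The rise on HFS ad lib was not separable from that on NC ad lib, since the difference of the log2 fold changes was -0.52 (95% interval -1.19 to 0.15, adjusted p = 0.91), and 0.14 (adjusted p = 1.0) without the 2 HFS ad lib mice. For HFS TRF against HFS ad lib it was 0.24 (-0.43 to 0.91, adjusted p = 1.0), -0.42 (adjusted p = 1.0) without the HFS ad lib mice and 0.69 (adjusted p = 0.81) without the HFS TRF mice, so the sign of both differences turned with these mice.

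**Figure D1:**
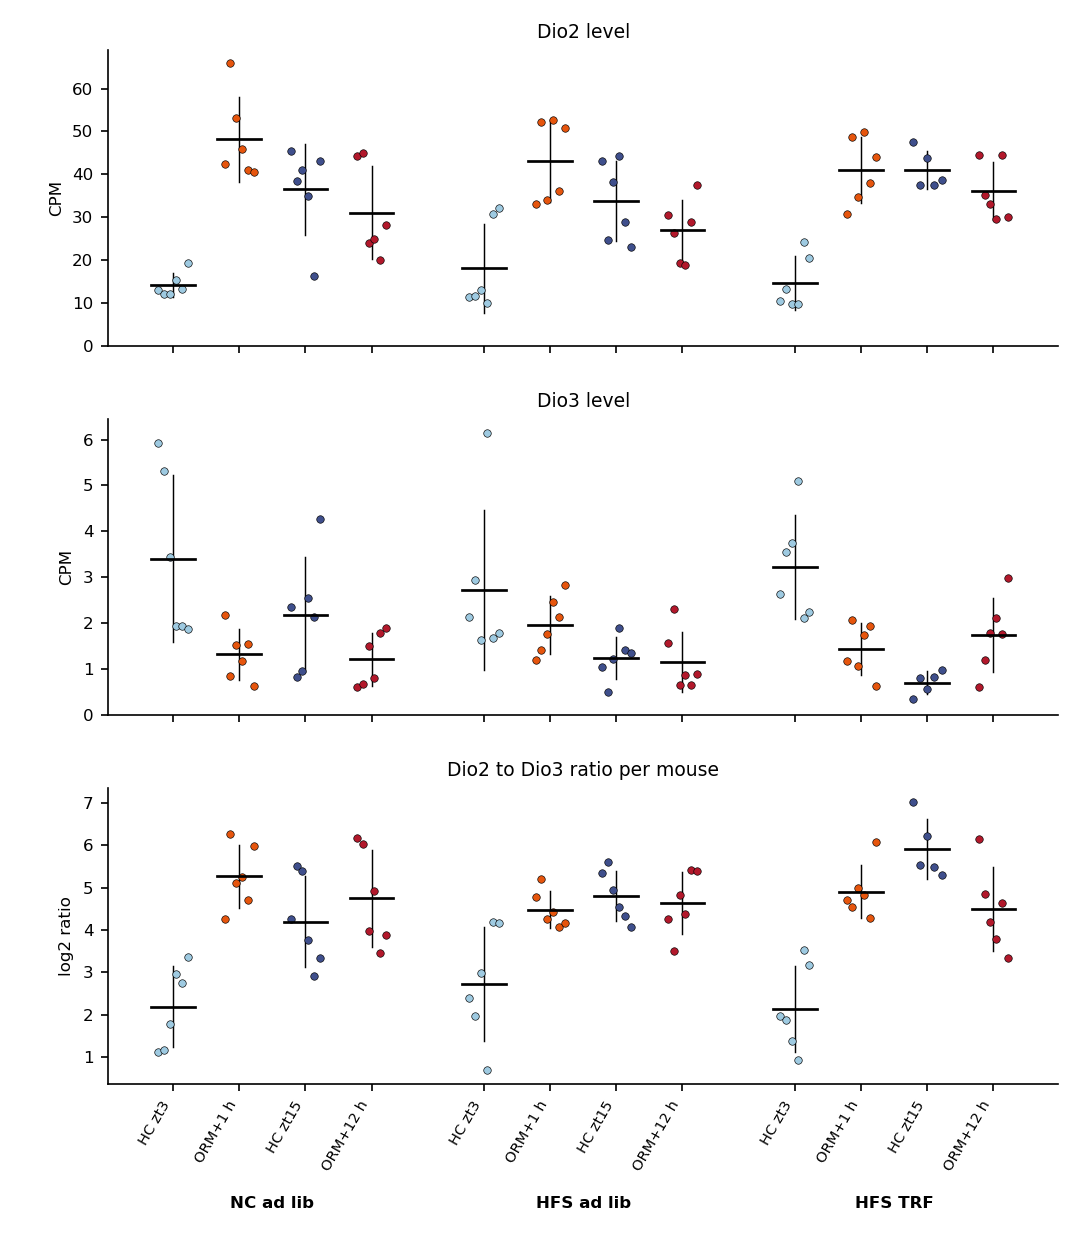
Levels of Dio2 and Dio3 (CPM, linear axes from 0) and the log2 ratio of their normalised counts in each of the 71 mice, by diet and condition, with a bar at the group mean and a line of 1 SD to either side. Dio2 at ORM+1 h lies above HC zt3 without overlap on each diet, and HFS TRF mice at HC zt15 have the lowest mean of Dio3 (0.344 to 0.963 CPM), a range that mice of other groups also reach.

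Dio3 moved the other way, from a low level. NC ad lib mice had 1.87 to 5.92 CPM at HC zt3 (median 2.69) and 0.618 to 2.18 CPM at ORM+1 h (median 1.35), 2 ranges that overlap. HFS TRF mice had 2.11 to 5.09 CPM (median 3.09) and 0.630 to 2.06 CPM (median 1.44), without overlap, and HFS ad lib mice 1.63 to 6.15 CPM (median 1.95) and 1.19 to 2.83 CPM (median 1.95), with equal medians. The fall passed the test in NC ad lib mice (log2 fold change -1.37 ± 0.38, 0.387-fold, adjusted p = 0.017). It did not in HFS TRF mice (-1.18 ± 0.38, 0.442-fold, adjusted p = 0.077) nor in HFS ad lib mice (-0.47 ± 0.37, adjusted p = 0.67). Without HFS TRF HC zt3 replicates 5 and 6, the HFS TRF fall passed (-1.40 ± 0.41, adjusted p = 0.043), as it did with DESeq2 (-1.17, adjusted p = 0.028) and in a model of these 2 groups alone (-1.17, adjusted p = 0.018). The NC ad lib call held in 8 of 12 fits that left out 1 mouse, with an adjusted p of 0.077 without HC zt3 replicate 1.

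Because the deiodinases work in opposite directions, their ratio was taken within each mouse as log2 of Dio2 over Dio3 normalised counts, with 1 added to each. At HC zt3 it ranged from 1.12 to 3.36 on NC ad lib, from 0.69 to 4.18 on HFS ad lib and from 0.92 to 3.52 on HFS TRF. At ORM+1 h it ranged from 4.27 to 6.26, from 4.07 to 5.20 and from 4.29 to 6.09. Thus the ratio was higher in every trained mouse than in any home cage mouse on NC ad lib and HFS TRF, whereas the ranges met on HFS ad lib through HC zt3 replicates 5 and 6 (4.18 and 4.17), the other 4 being at 0.69 to 2.98. The differences of the means were 3.07 ± 0.50 (8.42-fold, adjusted p = 0.0065), 1.75 ± 0.58 (3.36-fold, adjusted p = 0.03) and 2.77 ± 0.49 (6.83-fold, adjusted p = 0.0065) by a 2-sided exact permutation test adjusted over 6 comparisons, whose smallest possible unadjusted p is 0.0022 with 6 mice against 6. Without HC zt3 replicates 5 and 6 of the diet concerned, the difference was 2.47 on HFS ad lib (adjusted p = 0.0095, exact permutation) and 3.38 on HFS TRF (adjusted p = 0.014, exact permutation), without overlap on either. The gains in ratio did not differ detectably between NC ad lib and HFS ad lib (-1.33 for HFS ad lib minus NC ad lib, adjusted p = 0.18) or between HFS ad lib and HFS TRF (1.02 for HFS TRF minus HFS ad lib, adjusted p = 0.24) by the exact permutation test. Without the 2 HFS ad lib mice these differences were -0.60 (adjusted p = 0.61) and 0.30 (adjusted p = 0.67), and without the 2 HFS TRF mice the latter was 1.63 (adjusted p = 0.15), by the same exact permutation test. Since the Dio2 and Dio3 values enter it, the ratio is another view of the same counts.

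The astrocyte markers Slc1a3, Slc1a2, Aqp4, Gfap, Aldh1l1, Gja1, Aldoc and S100b moved with Dio2. At ORM+1 h, 8 of 8 rose on NC ad lib (median log2 fold change 1.31), 0 of 8 passed the test on HFS ad lib (median 0.54) and 7 of 8 rose on HFS TRF (median 1.03). Without HFS ad lib HC zt3 replicates 5 and 6, 8 of 8 rose on HFS ad lib too (median 1.40), and without the 2 such HFS TRF mice 8 of 8 rose on HFS TRF (median 1.53). Their summed level averaged 1480 ± 187 CPM at HC zt3 and 3730 ± 779 CPM at ORM+1 h on NC ad lib (SD, n = 6), 1940 ± 1180 and 2850 ± 867 CPM on HFS ad lib, and 1580 ± 622 and 3270 ± 767 CPM on HFS TRF. Slc1a2, the main glutamate transporter of astrocytes, made up 39.5% of the sum, and no marker was at 0 in any mouse. Over the 71 mice, Dio2 followed this sum with a Pearson r of 0.941 and a Spearman rho of 0.888, and with r = 0.932 without the 2 mice farthest from the median and r = 0.931 after the group means were subtracted. These mice share 12 groups and 2 experiments, and the correlation is given as a description.

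Per 1000 CPM of astrocyte markers of the same mouse, Dio2 went from 9.48 ± 0.895 to 13 ± 1.29 CPM on NC ad lib, from 9.50 ± 0.511 to 15.5 ± 2.63 CPM on HFS ad lib and from 9.14 ± 0.703 to 12.7 ± 1.66 CPM on HFS TRF between HC zt3 and ORM+1 h (SD, n = 6 mice each). The groups did not overlap on any diet, and the 3 home cage means were close to each other although the astrocyte sum itself was spread widely at HC zt3. This quotient was 1.37-, 1.62- and 1.39-fold higher at ORM+1 h, each with an adjusted p of 0.0049 in a 2-sided exact permutation test over 9 comparisons, which were chosen after the values had been seen. The change in this quotient did not differ detectably between NC ad lib and HFS ad lib or between HFS TRF and HFS ad lib (adjusted p = 0.17 for both, exact permutation). The part of astrocyte content in the rise of Dio2 was not tested.

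**Figure D2:**
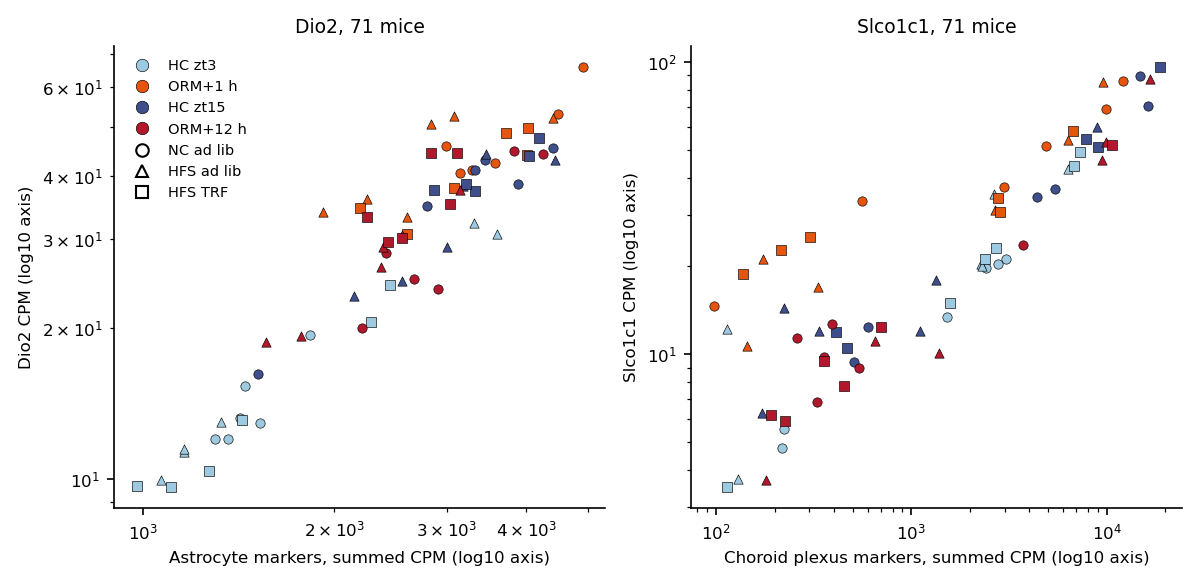
Left, Dio2 CPM against the summed CPM of 8 astrocyte markers, and right, Slco1c1 CPM against the summed CPM of 7 choroid plexus markers, 1 point per mouse (n = 71), coloured by condition and shaped by diet, on log10 axes. Dio2 follows the astrocyte sum (r = 0.941), with the ORM+1 h mice towards the upper edge of the cloud, and Slco1c1 follows the choroid plexus sum (r = 0.873) above a floor of mice in which that sum is low.

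Among the other members at ORM+1 h, Crym, which holds T3 in the cytosol, was lower on each diet by point estimate. In HFS TRF mice it went from 397 to 503 CPM (median 472) to 292 to 378 CPM (median 343), without overlap, a log2 fold change of -0.45 ± 0.11 (0.734-fold, adjusted p = 0.011). In NC ad lib mice the values were 430 to 532 CPM (median 467) and 324 to 492 CPM (median 369), with a log2 fold change of -0.33 and an adjusted p of 0.063, and in HFS ad lib mice 350 to 504 CPM (median 432) and 322 to 432 CPM (median 345), with -0.22 and 0.37. By edgeR the HFS TRF fall passed the test. The NC ad lib fall passed with DESeq2 (adjusted p = 0.021), with DESeq2 size factors in edgeR (0.048), with the filterByExpr filter (0.025), with a replicate block (0.038) and in a model of its 2 groups alone (0.021).

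Thra fell slightly in NC ad lib mice, from 1760 to 2200 CPM (median 1950) to 1530 to 1830 CPM (median 1600), with overlapping groups and a log2 fold change of -0.24 ± 0.08 (adjusted p = 0.045). This call was fragile, since it held in 4 of 12 fits that left out 1 mouse, with an adjusted p of up to 0.15 (without HC zt3 replicate 4). The log2 fold change was -0.03 (adjusted p = 0.96) on HFS ad lib and -0.17 (adjusted p = 0.26) on HFS TRF. These values do not separate the isoforms of Thra. With the isoforms apart, the paper reported Thra2 lower after training on NC ad lib and HFS TRF, and Thra1 unaltered. Thrb had positive values that did not pass, 0.26 on NC ad lib (adjusted p = 0.055, or 0.035 with DESeq2) and 0.19 on HFS TRF (adjusted p = 0.28). Of the coregulators, Ncoa1 was at -0.20 on HFS ad lib (adjusted p = 0.092, or 0.03 with DESeq2) and Ncor1 at -0.05 on NC ad lib (adjusted p = 0.80). Hr, the T3-induced gene, was at -0.11 on NC ad lib (adjusted p = 0.73) and 0.32 on HFS TRF (adjusted p = 0.15, or 0.041 in a model of those 2 groups alone).

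**Figure D3:**
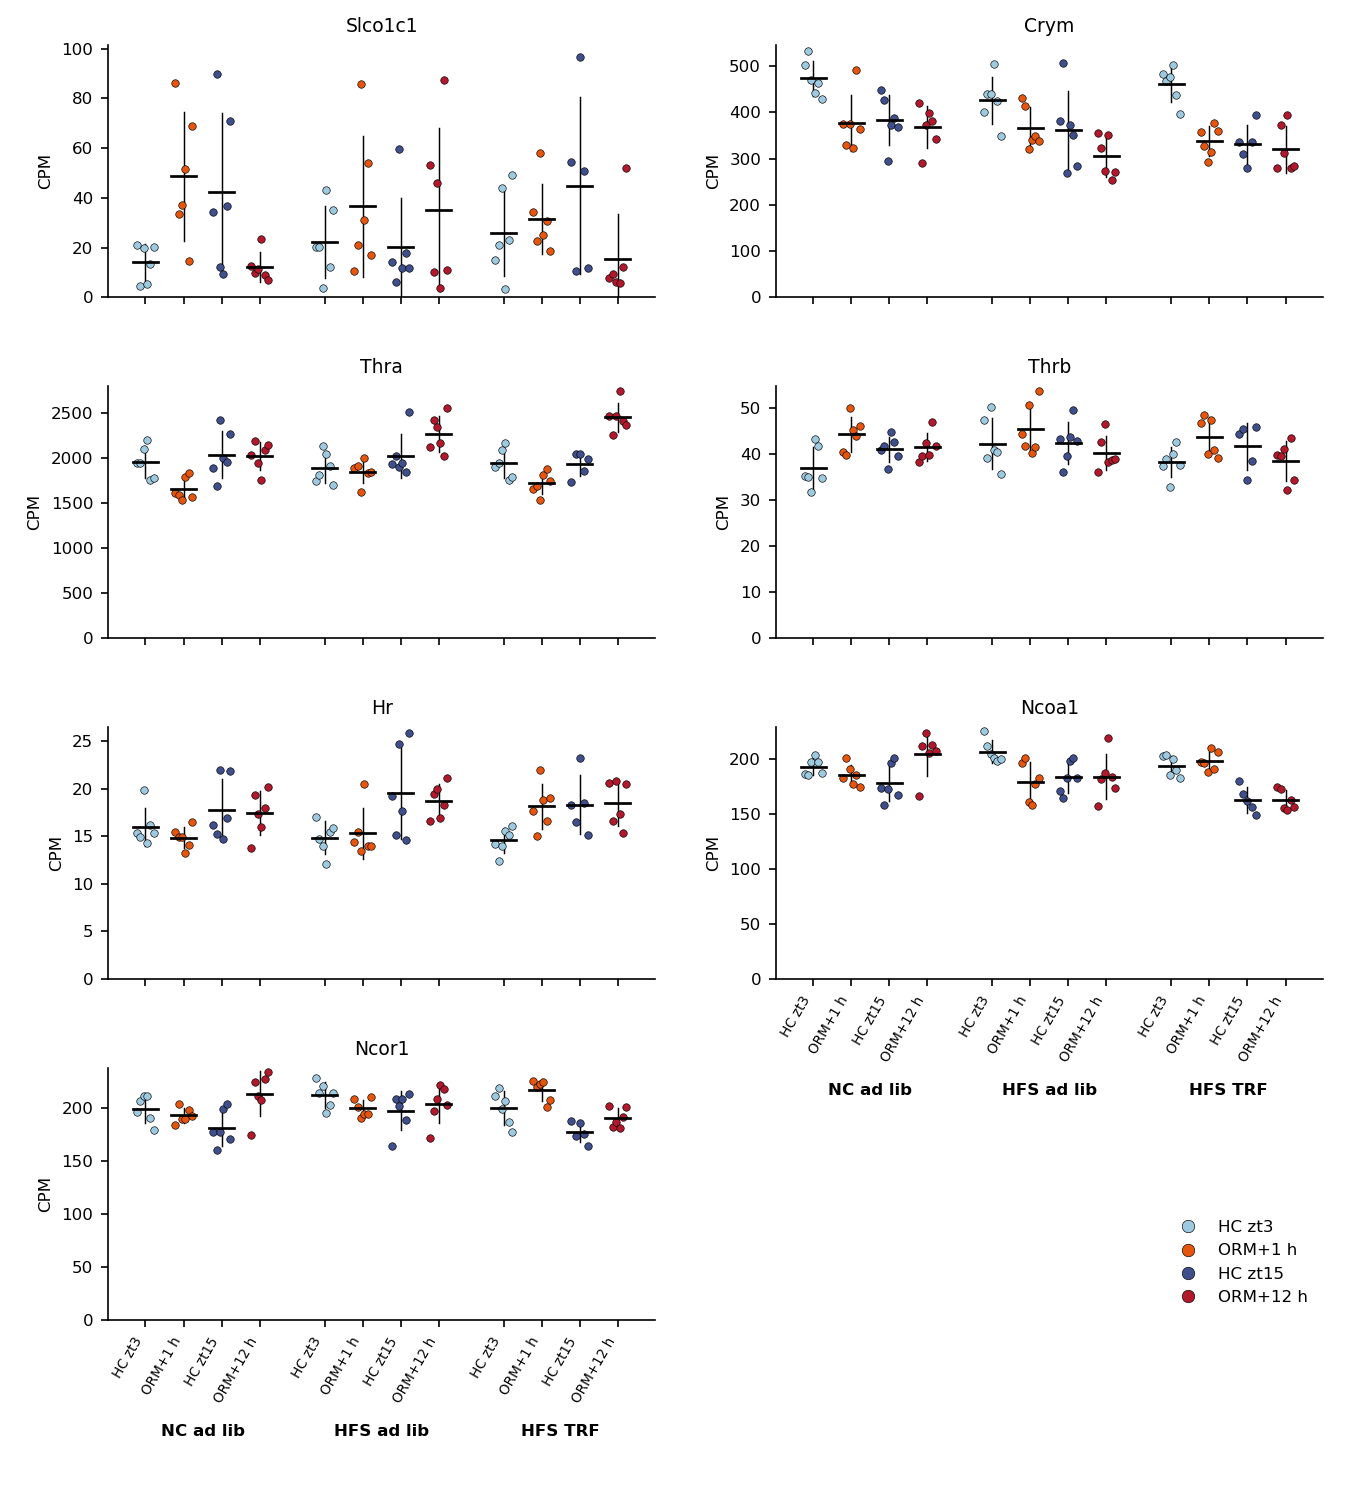
Levels of the other 7 members (CPM, linear axes) in each of the 71 mice by diet and condition, with a bar at the group mean and a line of 1 SD to either side. Slco1c1 is spread over 3.50 to 96.5 CPM, whereas Ncor1, Ncoa1, Thrb and Thra stay within a 1.79-fold range over all mice.

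The second comparison, ORM+12 h against HC zt15, addressed the late phase after training and used mice taken in the night on both sides. The only member that changed was Thra, which rose 1.27-fold in HFS TRF mice. On NC ad lib edgeR called 0 of 9 members, where 0.209% of all genes changed (0.143% higher, 0.0664% lower), and on HFS ad lib 0 of 9 (0.179% of all genes, 0.0697% higher and 0.109% lower). These small shares moved with single mice, from 0.00332% (without HC zt15 replicate 6 or ORM+12 h replicate 6) to 0.826% (without ORM+12 h replicate 1) on NC ad lib and on HFS ad lib from 0.0%, with replicate 2 of ORM+12 h left out, to 2.3%, with replicate 6 of HC zt15 left out. On HFS TRF edgeR called 1 of 9 (2.46% of all genes, 1.57% higher and 0.889% lower). With 1 mouse left out at a time, that HFS TRF share also moved, from 0.0232% to 3.38%. An unadjusted p under 0.05 was reached by 4 members on NC ad lib and 2 on HFS ad lib, and by 5050 and 5129 of the 30141 genes. DESeq2's Wald test called 1 member (Ncor1) on NC ad lib, 0 on HFS ad lib and 2 (Thra and Dio3) on HFS TRF, and 296, 261 and 1738 of all genes. Median log2 fold changes of the 9 were -0.03, -0.06 and 0.0, and that of all genes was 0.0 on each diet.

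In HFS TRF mice, Thra stood at 1730, 1860, 1990, 2040 and 2040 CPM at HC zt15 and at 2260 to 2740 CPM (median 2440) at ORM+12 h. Every trained mouse was above every home cage mouse, and the log2 fold change was 0.34 ± 0.08 (adjusted p = 0.017). The call held in 9 of 11 fits that left out 1 mouse, with an adjusted p of 0.091 without HC zt15 replicate 1. HFS ad lib mice had 1840 to 2510 CPM (median 1940) and 2020 to 2550 CPM (median 2260), a log2 fold change of 0.16 (adjusted p = 0.26), and NC ad lib mice 1690 to 2420 CPM (median 1980) and 1760 to 2190 CPM (median 2060). No interaction of diet and training passed for Thra.

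Dio2 did not stay above its home cage control at 12 h. NC ad lib mice had 16.2 to 45.5 CPM at HC zt15 (median 39.8) and 20 to 44.9 CPM at ORM+12 h (median 26.6). Among HFS ad lib mice they were 23.1 to 44.2 CPM (median 33.6) and 18.7 to 37.6 CPM (median 27.6). HFS TRF mice had 37.4, 37.6, 38.6, 43.8 and 47.5 CPM at HC zt15 and 29.6 to 44.5 CPM (median 34.1) at ORM+12 h. All 3 pairs of groups overlapped, and the log2 fold changes were -0.24 ± 0.24, -0.33 and -0.18 ± 0.25 (adjusted p = 0.67, 0.49 and 0.75). By group mean, Dio2 was at 33.7 to 41.0 CPM at HC zt15 and at 41.0 to 48.2 CPM at ORM+1 h, in different experiments.

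Dio3 at 12 h gave point estimates in opposite directions. The value was 2.48-fold in HFS TRF mice, where 0.344 to 0.963 CPM at HC zt15 stood beside 0.607 to 2.97 CPM at ORM+12 h (log2 fold change 1.31 ± 0.42, adjusted p = 0.067), and NC ad lib mice gave a log2 fold change of -0.85 ± 0.38 (adjusted p = 0.25). The log2 ratio of Dio2 to Dio3 in HFS TRF mice went from 5.30 to 7.03 at HC zt15 to 3.33 to 6.15 at ORM+12 h, a difference of -1.42 ± 0.51 (0.375-fold) with an adjusted p of 0.049 by the exact permutation test. That call is at the edge, since it was lost in 10 of 11 tests that left out 1 mouse. The ratio differences were 0.55 ± 0.64 on NC ad lib (adjusted p = 0.48, exact permutation) and -0.17 ± 0.39 on HFS ad lib (adjusted p = 0.66, exact permutation). Slco1c1 had wide estimates, -1.79 ± 0.62 on NC ad lib (adjusted p = 0.18), 0.79 on HFS ad lib (adjusted p = 0.53) and -1.52 on HFS TRF (adjusted p = 0.16).

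The third comparison set home cage mice in the night against those in the day, HC zt15 against HC zt3. It shares its HC zt3 mice with the first comparison and its HC zt15 mice with the second, so the values are not independent of those above. Dio2 was higher at HC zt15 on all 3 diets, 1.86- to 2.81-fold. Dio3 was lower on HFS ad lib and HFS TRF, Crym and Ncoa1 were lower on HFS TRF, and Hr was higher on HFS ad lib. In counts, 1 of 9 members changed on NC ad lib, where 11.7% of all genes did (5.18% higher, 6.54% lower), 3 of 9 on HFS ad lib (10.4% of all genes, 3.88% higher and 6.54% lower) and 4 of 9 on HFS TRF (14.2%, 5.95% higher and 8.26% lower). The median log2 fold changes of the 9 were 0.06, -0.11 and -0.01 beside 0.0, -0.013 and 0.0 for all genes. Since each time of day was collected in its own experiment, the effects of hour and of experiment cannot be told apart.

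For Dio2, the log2 fold change was 1.37 ± 0.24 on NC ad lib (2.59-fold, adjusted p = 1.7e-05), 0.89 ± 0.24 on HFS ad lib (1.86-fold, adjusted p = 0.0071) and 1.49 ± 0.25 on HFS TRF (2.81-fold, adjusted p = 6.2e-06). In an edgeR model of the 2 HFS ad lib groups alone, the HFS ad lib value was 0.91 and did not pass (adjusted p = 0.058). By the CPM ranges above, the groups overlapped on NC ad lib, through 1 mouse at 16.2 CPM, and on HFS ad lib, through the 2 HC zt3 mice that stood apart, but not on HFS TRF. Without those 2 mice the HFS ad lib value was 1.56 ± 0.24 (adjusted p = 1.6e-06), and without the 2 such HFS TRF mice the HFS TRF value was 1.94 ± 0.27 (adjusted p = 1.5e-07). Astrocyte markers were higher at HC zt15 as well, 8 of 8 on NC ad lib (median log2 fold change 1.12), 2 of 8 on HFS ad lib (0.61) and 7 of 8 on HFS TRF (1.13). Without HC zt3 replicates 5 and 6 of the diet concerned, 8 of 8 were higher on HFS ad lib (1.45) and 8 of 8 on HFS TRF (1.64), so the 2 of 8 rested on these 2 mice. Per 1000 CPM of astrocyte markers, Dio2 was 1.20-fold on NC ad lib (adjusted p = 0.031), 1.13-fold on HFS ad lib (adjusted p = 0.11) and 1.28-fold on HFS TRF (adjusted p = 0.0049, no overlap) by the exact permutation test.

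Dio3 in HFS TRF mice fell from 2.11 to 5.09 CPM at HC zt3 to 0.344, 0.566, 0.793, 0.825 and 0.963 CPM at HC zt15, the lowest mean of the 12 groups. These groups lay far apart, with a log2 fold change of -2.20 ± 0.42 (0.217-fold, adjusted p = 8.2e-05). Dio3os, the opposite-strand neighbour of Dio3, with which it shares no exon bases in the annotation used, was also lower in these mice from a level near 0 (-2.19, adjusted p = 0.034, or 0.051 without HC zt3 replicates 5 and 6). HFS ad lib mice had 1.63 to 6.15 CPM at HC zt3 and 0.489 to 1.88 CPM at HC zt15, overlapping ranges with a log2 fold change of -1.14 ± 0.38 (0.454-fold, adjusted p = 0.042). This HFS ad lib call held in 5 of 12 fits that left out 1 mouse, and the adjusted p was 0.24 without HC zt3 replicate 4, the mouse at 6.15 CPM. It was also lost with a replicate block (adjusted p = 0.055) and in a model of these 2 groups alone (adjusted p = 0.067), and kept without HC zt3 replicates 5 and 6 (-1.38 ± 0.41, adjusted p = 0.018). NC ad lib mice had 0.822 to 4.27 CPM at HC zt15, with -0.64 ± 0.38 (adjusted p = 0.28) against HC zt3.

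Crym in HFS TRF mice was at 279, 311, 337, 337 and 394 CPM at HC zt15, just below the 397 to 503 CPM of HC zt3, with a log2 fold change of -0.48 ± 0.12 (0.719-fold, adjusted p = 0.0022). NC ad lib mice gave -0.31 (adjusted p = 0.059), which passed with DESeq2 (0.038), the filterByExpr filter (0.038), a replicate block (0.03) and a model of those 2 groups alone (0.036). The Crym estimate was below 0 in 9 of 9 comparisons of conditions, from -0.48 to -0.05, of which 2 passed the test, and these comparisons share groups. Ncoa1, the coactivator, stood at 149, 157, 162, 169 and 180 CPM at HC zt15 and 183 to 204 CPM (median 195) at HC zt3 in HFS TRF mice, a small fall without overlap (-0.25 ± 0.07, 0.840-fold, adjusted p = 0.0045). Ncor1, the corepressor, was at -0.17 in the same mice (adjusted p = 0.065), and it passed without HC zt3 replicates 5 and 6 (-0.23 ± 0.07, adjusted p = 0.014) and with the filterByExpr filter (adjusted p = 0.04). Without the same 2 mice Ttc19, which shares exon bases with Ncor1, was lower too (-0.21, adjusted p = 0.045), and its part in the Ncor1 value was not tested.

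Hr, the hormone-induced member, was higher at HC zt15 in HFS ad lib mice, with 12.1 to 17 CPM at HC zt3 (median 15) and 14.6 to 25.8 CPM at HC zt15 (median 18.4). The groups overlapped, the log2 fold change was 0.39 ± 0.12 (1.31-fold, adjusted p = 0.021), and the adjusted p was 0.11 without HC zt15 replicate 6 and 0.099 in a model of those 2 groups alone. HFS TRF mice gave 0.33 (adjusted p = 0.059), which passed with DESeq2 (0.035), with DESeq2 size factors in edgeR (0.048), with genes of at least 1 count (0.047) and with a replicate block (0.021).

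**Figure D4:**
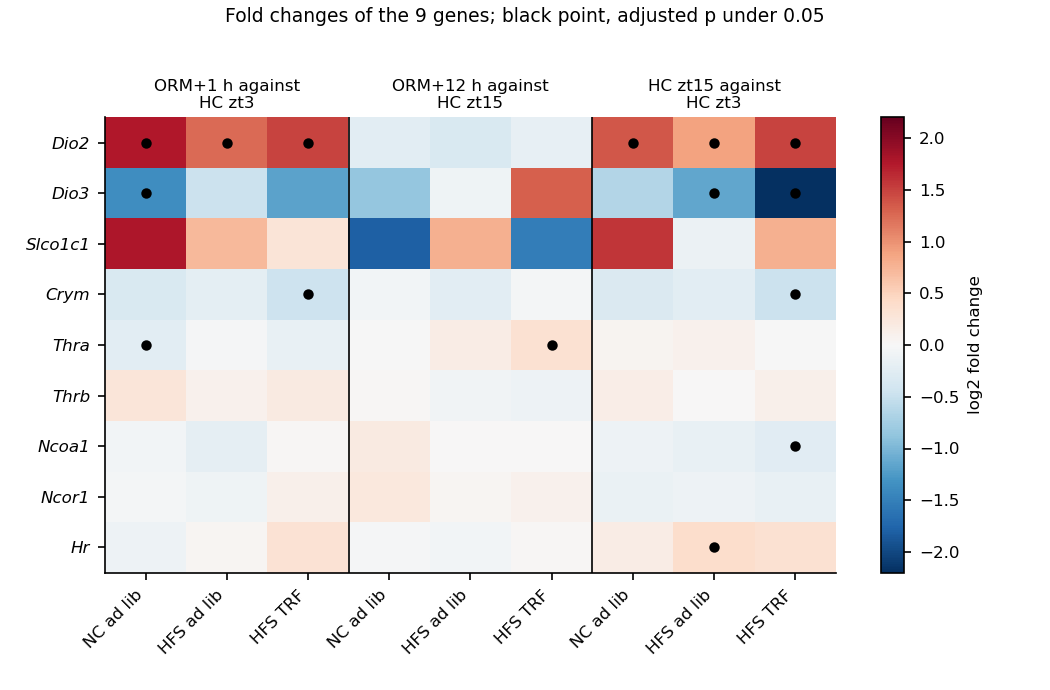
Log2 fold change (colour) of the 9 members in the 9 comparisons of conditions, with a black point where the adjusted p is under 0.05. Dio2 has a point in each of 6 columns at ORM+1 h and HC zt15 and none at ORM+12 h.

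Diets were compared within each condition, which asks whether HFS feeding or the restriction of its hours shifts these genes. Of 108 member comparisons, 2 passed, both in HFS TRF against NC ad lib at ORM+12 h. There 2 of 9 members changed, 1 in each direction, beside 8.78% of all genes (3.47% higher, 5.31% lower). The 8.78% was 3.93% in a model of those 2 groups alone and 4.7% to 9.03% with 1 mouse left out. Ncoa1 was lower, at 154 to 175 CPM (median 160) in HFS TRF and 167 to 224 CPM (median 210) in NC ad lib mice, with a log2 fold change of -0.33 ± 0.06 (adjusted p = 0.00047) and an overlap through 1 NC ad lib mouse at 167 CPM. Thra was higher, at 2260 to 2740 CPM against 1760 to 2190 CPM without overlap, with 0.28 ± 0.08 (adjusted p = 0.013). The Thra call was lost without NC ad lib ORM+12 h replicate 4 (adjusted p = 0.06) and in a model of those 2 groups alone (adjusted p = 0.052). By edgeR, 0 of 9 members changed in HFS ad lib against NC ad lib in any condition, where at most 2.27% of all genes did (ORM+12 h, 0.763% higher and 1.51% lower), and in HFS TRF against HFS ad lib 0 of 9, where at most 0.00664% did. The 2.27% moved with the model and with single mice: it was 0.0% in a model of those 2 groups alone, 4.82% with a replicate block within condition, 0.246% without NC ad lib ORM+12 h replicate 4 and 6.29% without HFS ad lib ORM+12 h replicate 4. DESeq2 also called 0 of 9 members in these 8 comparisons, and from 0 to 1434 of all genes. Over the 108, 19 had an unadjusted p under 0.05, where from 1289 to 7371 of the 30141 genes did in a comparison.

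Dio2 did not differ by diet in any condition, with log2 differences from -0.31 to 0.43 and a smallest adjusted p of 0.47. At ORM+1 h, for example, HFS ad lib against NC ad lib gave -0.16 with a 95% interval of -0.63 to 0.31, so differences within that interval could not be told from 0. The largest diet estimate for Dio3 was at HC zt15, where HFS TRF mice had 0.344 to 0.963 CPM and NC ad lib mice 0.822 to 4.27 CPM, a log2 difference of -1.63 ± 0.42 with an unadjusted p of 0.00023 and an adjusted p of 0.29. Among all genes, 0.0% were called in that comparison. Differences between diets in the response to training or time of day were tested as interactions. edgeR and DESeq2 called 0 of 54 for the members, 7 had an unadjusted p under 0.05 (from 1685 to 5643 of the 30141 genes did in a comparison), and the smallest adjusted p was 0.097, for Slco1c1 at ORM+12 h in HFS ad lib against NC ad lib (2.58 ± 0.87). There, edgeR called 0.106% of all genes (32) and DESeq2 called 732 genes, and edgeR called 0 in models of only those groups, 17 among genes of at least 1 count and 515 with a replicate block within condition.

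Slco1c1, the T4 transporter, was the most variable member, and its level followed the choroid plexus, a tissue that lies next to the hippocampus. Group means ran from 12.2 ± 5.92 CPM (NC ad lib, ORM+12 h) to 48.6 ± 25.8 CPM (NC ad lib, ORM+1 h), and 0 of 9 comparisons of conditions passed the test. The nearest was ORM+1 h against HC zt3 on NC ad lib, with 14.6 to 86.1 CPM (median 44.5) against 4.77 to 21.1 CPM (median 16.6), a log2 fold change of 1.78 ± 0.62 and an adjusted p of 0.077. This comparison passed with DESeq2 (adjusted p = 0.036), in a model of NC ad lib HC zt3 and ORM+1 h alone (adjusted p = 0.0069) and with a replicate block (adjusted p = 0.049). HC zt15 against HC zt3 on NC ad lib passed in the last 2 kinds of model (adjusted p = 0.039 and 0.042). The 7 choroid plexus markers Ttr, Kl, Folr1, Clic6, Kcnj13, Otx2 and Aqp1 summed to 97.2 to 18700 CPM, 89.4% of it Ttr, with none at 0 in any mouse and 0 of 7 passing in any comparison of conditions. Over the 71 mice, Slco1c1 followed that sum with r = 0.873 and rho = 0.857, and with r = 0.887 without the 2 farthest mice and r = 0.927 after group means were subtracted. Against the endothelial markers, which were near 0 (1.35 to 14 CPM summed over 6 genes, with 1 gene at 0 in a mouse), r was -0.05, and against the astrocyte sum 0.228. Neither Dio3 with the choroid plexus sum (r = 0.03) nor Dio3 with 4 thalamus markers (r = 0.069, summed level 49.5 to 341 CPM) showed a relation.

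Of 7 hippocampal subfield markers, 3 were higher (Dsp, Prox1 and C1ql2) and 1 lower (Fibcd1) at HC zt15 on NC ad lib, C1ql2 was higher and Fibcd1 lower on HFS ad lib, and Fibcd1 was lower on HFS TRF. Without HFS ad lib HC zt3 replicates 5 and 6, 4 of 7 changed at HC zt15 on HFS ad lib, 2 in each direction (Fibcd1, Dsp, Prox1 and Wfs1). C1ql2, a gene of dentate granule cells, also rose at ORM+12 h on HFS TRF and was higher there than in NC ad lib mice, both comparisons in which Thra was higher, and none of the 7 passed at ORM+1 h. Of 7 neuron markers, Rbfox3 fell at ORM+1 h on NC ad lib, Gad2 fell at ORM+12 h on HFS ad lib and Slc17a7 rose at ORM+12 h on HFS TRF, the comparison in which Thra rose. At HC zt15, Tubb3 was lower on NC ad lib and HFS TRF and Gad2 higher on HFS ad lib. Of 6 oligodendrocyte markers (222 to 535 CPM), 3 were higher in HFS TRF than in NC ad lib mice at ORM+12 h, Mobp, Mog and Cldn11, with a list median of 0.50. At HC zt15 on HFS TRF, where Dio3, Crym and Ncoa1 fell, Opalin was lower (-0.96, adjusted p = 0.0019) and Mobp higher (0.42, adjusted p = 0.039). The endothelial gene Cdh5, at a low level, was higher at HC zt15 on HFS ad lib (1.45, adjusted p = 0.045) and HFS TRF (2.52, adjusted p = 0.00025). None of 6 microglia markers (35.9 to 393 CPM) or 4 oligodendrocyte precursor markers (88.7 to 178 CPM) passed at ORM+1 h or ORM+12 h on any diet with all mice in the fit, and at HC zt15 the precursor gene Gpr17 was higher on each diet and the microglia genes Tmem119 and Csf1r on HFS ad lib. In that group 1 mouse had a microglia sum of 393 CPM and the other 5 had 56.4 to 66.5 CPM, beside an HC zt3 median of 72.8 CPM. Cx3cr1, another microglia gene, was higher in HFS ad lib than in NC ad lib mice at HC zt15 (1.31, adjusted p = 0.042), in the same group. Without HFS ad lib HC zt3 replicates 5 and 6, the HC zt15 calls of Cdh5, Gad2, Csf1r and C1ql2 on HFS ad lib were lost, and Cnp (0.46, adjusted p = 0.017) and Cldn11 (0.50, adjusted p = 0.048) passed there. Without HFS TRF HC zt3 replicates 5 and 6, the fit in which Dio3 fell at ORM+1 h, Gpr17 (0.51, adjusted p = 0.026) and Cdh5 (2.26, adjusted p = 0.017) were higher at ORM+1 h on HFS TRF. Their part in the results of the members was not tested.

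Other genes of the pathway were read from 3 lists chosen by function, whose counts stand beside 5.73%, 1.23% and 2.87% of all genes called at ORM+1 h, 0.209%, 0.179% and 2.46% at ORM+12 h and 11.7%, 10.4% and 14.2% at HC zt15 (NC ad lib, HFS ad lib, HFS TRF). Of 11 further genes of hormone transport and metabolism, 1 fell at ORM+1 h on NC ad lib, the amino acid and hormone transporter Slc7a8 (log2 fold change -0.29, adjusted p = 0.045), and none passed on the other diets or at ORM+12 h. Without HFS ad lib HC zt3 replicates 5 and 6, Slc7a8 was also lower at ORM+1 h on HFS ad lib. At HC zt15 the sulfotransferase gene Sult1a1, whose product conjugates the hormone among other substrates, was higher on all 3 diets (1.18, 1.05 and 1.27, adjusted p = 0.00033, 0.0015 and 0.00016). Dio1, the deiodinase of liver and kidney, had 24 counts in the 5 HFS TRF mice at HC zt15 and 0 in the 6 at HC zt3. Of these 24, 12 came from 1 mouse and 2 of the 5 mice had no read, and the call was lost without HC zt3 replicates 5 and 6. The list medians were 0.29, -0.01 and 0.05 at ORM+1 h and 0.58, 0.14 and 0.57 at HC zt15, in the order NC ad lib, HFS ad lib, HFS TRF. Ttr, the carrier protein of the hormone, belongs to this list and to the choroid plexus markers.

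Of 16 receptor partners, coactivators and corepressors, 1 rose at ORM+1 h, the acetyltransferase gene Ep300 on HFS TRF (0.39, adjusted p = 0.0024), and none passed at ORM+12 h. At HC zt15 the related acetyltransferase gene Crebbp was higher on all 3 diets (0.31, 0.22 and 0.23) and the receptor partner Rxra on both ad lib diets (0.37 and 0.33), whereas Nrip1 (-0.45, adjusted p = 0.0019) and Rxrg (-0.88, adjusted p = 0.019) were lower on HFS TRF. Without HC zt3 replicates 5 and 6 of the diet concerned, Crebbp did not pass on HFS ad lib or HFS TRF, nor Rxra on HFS ad lib, where Nrip1 was then lower. In HFS TRF against NC ad lib at ORM+12 h, 3 of 16 were lower beside 5.31% of all genes, the corepressor Nrip1 (-0.52, adjusted p = 0.00081), the coactivator Ncoa2 (-0.36, adjusted p = 0.0012) and the mediator subunit Med1 (-0.28, adjusted p = 0.0039), beside the lower Ncoa1.

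Of 16 genes known to respond to T3 in brain, 3 rose and 1 fell at ORM+1 h on NC ad lib, namely Thrsp (1.20, adjusted p = 0.00014), Aldh1a1 (1.09, adjusted p = 0.00037), Itih3 (1.21, adjusted p = 0.015) and, downwards, Sema7a (-0.28, adjusted p = 0.019). Aldh1a1 (0.91, adjusted p = 0.0071) and Thrsp (0.88, adjusted p = 0.012) also rose on HFS TRF, joined by Itih3 without HFS TRF HC zt3 replicates 5 and 6, and none passed on HFS ad lib. Without HFS ad lib HC zt3 replicates 5 and 6, Thrsp, Aldh1a1 and Itih3 rose and Camk4 fell on HFS ad lib, and the share of all genes called there went from 1.23% to 3.43%. The astrocyte markers moved in the same fits, with 8 of 8 called on NC ad lib, 0 of 8 on HFS ad lib or 8 of 8 without the 2 mice, and 7 of 8 on HFS TRF or 8 of 8 without the 2 mice, and their part in the values of this list was not tested. At ORM+12 h only the myelin gene Mbp rose, on HFS TRF (0.42, adjusted p = 0.027). The 6 oligodendrocyte markers summed to 326 to 447 CPM (median 350) at HC zt15 and 425 to 535 CPM (median 458) at ORM+12 h in these mice, overlapping ranges of which the latter has the highest median of the 12 groups. Of the 6, all had estimates above 0 in that comparison (median log2 fold change 0.34), 5 had an unadjusted p under 0.05, 0 passed by edgeR and 1 (Cldn11) by DESeq2, and their part in the Mbp value was not tested. At HC zt15, 3, 4 and 3 of 16 were higher and 0, 0 and 1 lower, beside 11.7%, 10.4% and 14.2% of all genes changed, with Aldh1a1 higher on each diet (0.82, 0.63 and 1.08). Without HC zt3 replicates 5 and 6 of the diet concerned, 3 were higher on HFS ad lib (Aldh1a1, Thrsp and Itih3; 10.8% of all genes changed) and 4 higher and 1 lower on HFS TRF (14.1%). The list medians were -0.09, 0.10 and 0.09 at ORM+1 h and 0.12, 0.21 and 0.13 at HC zt15. Klf9 and Nrgn, named here as textbook targets, did not pass in these comparisons. In HFS TRF against NC ad lib at ORM+12 h, Mbp (0.35, adjusted p = 0.024) and Stac2 (0.33, adjusted p = 0.023) were higher and Camk4 (-0.42, adjusted p = 0.0064) and Nefm (-0.27, adjusted p = 0.04) lower.

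**Figure D5:**
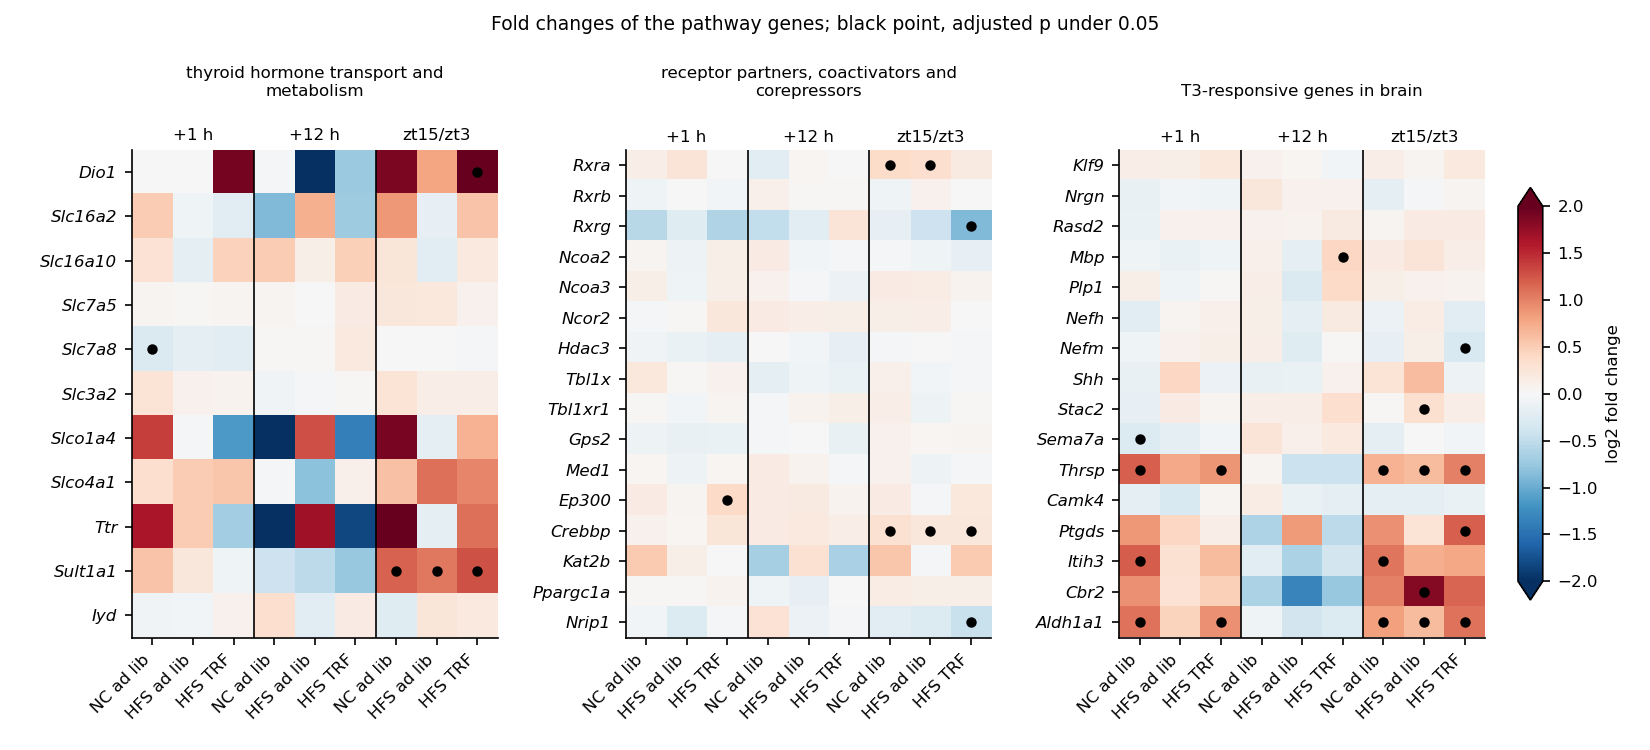
Log2 fold change (colour, limited to 2 in either direction) of the genes of 3 pathway lists in the 9 comparisons of conditions, with a black point where the adjusted p is under 0.05. Sult1a1, Crebbp, Thrsp and Aldh1a1 have points on all 3 diets at HC zt15, and the strong colours of Ttr, Slco1a4 and Dio1 are mostly without points.

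Over the 71 mice, the genes whose normalised log2 level ran most like that of each member were ranked among 14698 genes with a mean of at least 1 CPM, by Pearson r and as a description. For Dio2 these were Gjb6, a connexin gene of astrocytes (r = 0.956), Paqr8 (0.949) and Timp4 (0.947). For Slco1c1 they were Prelp (0.966), Cpq (0.949) and Smpdl3a (0.941). Dio3 had lower values, Cpne7 (0.768), Grp (0.76) and Krt77 (0.741), as did Hr, with Shc3 (0.728), Zc3h7b (0.706) and Map3k11 (0.695), and Thrb, with Rfx7 (0.629), Spred1 (0.613) and Samtor (0.607). Thra was closest to Jph4 (0.931), Begain (0.93) and Gng7 (0.929), and Crym to Rwdd2a (0.87), Rab26 (0.827) and Lancl1 (0.826). Ncoa1 was closest to Aak1 (0.85) and Anapc1 (0.849), and Ncor1 to Tanc1 (0.868), Lrrc7 (0.856) and Camsap2 (0.823). All mice enter these values, so shared differences between groups, experiments and tissue content contribute to them.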

How the data were processed

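Hippocampal pS6-TRAP libraries from 71 mice were analysed. The authors trimmed reads with Trim Galore 0.6.7 (cutadapt 3.4), aligned them to GRCm39 with HISAT2 2.2.0 and deposited raw counts per gene from featureCounts (Subread 2.0.3), unfiltered and not normalized. The submitters' processing notes also list mm9, which was not used here. Genes were named with a GRCm39 annotation (56310 of 57010 matched).

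Counts of genes with at least 10 counts in total (30141) were scaled by TMM and fitted with edgeR 4.0.16 (R 4.3.3, limma 3.58.1) in 1 quasi-likelihood model of 12 groups without covariates. Benjamini-Hochberg adjustment ran over all genes within each of 27 comparisons. CPM values use TMM library sizes, and RPKM values divide them by exon length. Single values were compared by exact permutation (scipy 1.17.1, numpy 2.4.6, pandas 2.3.3, Python 3.11.15), 2-sided. Replicates are separate mice.

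The members, the 3 pathway lists and the marker lists were chosen with earlier results of these data known. Named genes were all 9 members, at most 4 genes per pathway list and comparison among those that passed, and the 3 most similar genes per member, of which 1 is not reported here. Marker genes are named beside results. Alternatives were DESeq2 1.42.0, other filters and size factors, models of only the groups compared, the replicate block, and mice left out.

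On counts simulated for ORM+1 h against HC zt3 on NC ad lib (29532 genes), 13 of 66 genes changed by 0.5 on the log2 scale, 33 of 66 changed by 1 and 36 of 64 changed by 2 were recovered, with 3 false calls among 29336. The changed genes were drawn at random from genes of any level above 0, and each gene was given the trended dispersion of its level. These shares are therefore not specific to the levels or the spread of the members.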

Additional observations from a re-analysis of the deposited data

Results flagged for a closer look

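Of 120 groups of values tested, 6 held 1 mouse far from the rest of its group. Chance alone flags about 1 in 20, which is as many as were flagged, so the 6 are listed as a description. Dio2 was at 16.2 CPM in NC ad lib HC zt15 replicate 5, where the other 5 mice had 34.9 to 45.5 CPM. Thra was at 2510 CPM in HFS ad lib HC zt15 replicate 6, above 1840 to 2020 CPM in the others. Slco1c1 was at 52.1 CPM in HFS TRF ORM+12 h replicate 6, above 5.90 to 12.4 CPM. Crym was at 492 CPM in NC ad lib ORM+1 h replicate 5, above 324 to 376 CPM. Hr was at 20.5 CPM in HFS ad lib ORM+1 h replicate 4, above 13.4 to 15.4 CPM. Ncoa1 was at 167 CPM in NC ad lib ORM+12 h replicate 1, below 206 to 224 CPM, and it is the mouse through which the diet groups overlap at ORM+12 h.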

How the results depend on the processing

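The Dio2 calls held under every alternative run except 1 setting, as given next, and no member that passed changed sign under any. In models that held no group beyond those compared, the counts of members called, with the share of all genes called there, were 5 instead of 3 (ORM+1 h, NC ad lib, 7.86%), 0 instead of 1 (ORM+1 h, HFS ad lib, 0.597%, Dio2 at adjusted p = 0.056), 4 instead of 2 (ORM+1 h, HFS TRF, 5.05%), 3 instead of 1 (HC zt15 against HC zt3, NC ad lib, 9.17%), 0 instead of 3 (the same, HFS ad lib, 5.9%, Dio2 at adjusted p = 0.058) and 1 instead of 2 (HFS TRF against NC ad lib, 3.93%). DESeq2 gave 6 (ORM+1 h, NC ad lib, 14.7% of the genes it gave an adjusted p), 2 (ORM+1 h, HFS ad lib, 5.35%), 1 instead of 0 (ORM+12 h, NC ad lib, 1.6%), 2 instead of 1 (ORM+12 h, HFS TRF, 12.1%) and 2 (HC zt15, NC ad lib, 16.1%), and filterByExpr also 2 for the last (16.7%). The causes were not tested. Other size factors, at least 1 count, both other pseudocounts and the block within condition moved no count of members by over 1.5 times, whereas over all genes the block within condition moved HFS ad lib against NC ad lib from 684 to 1452 genes at ORM+12 h, from 19 to 0 at HC zt15 and from 0 to 87 at ORM+1 h.

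Replicate numbers were not treated as pairs in the main fit. Mice with the same number correlated above 0.1 in 13 of 35 pairs of trained and home cage mice, 3 of 17 pairs of HC zt15 and HC zt3 mice and 30 of 70 pairs across diets. By groups this ran from 0 of 6 (HFS ad lib at HC zt15 and HC zt3, median r -0.236) to 5 of 6 (HFS TRF and NC ad lib at HC zt3, median r 0.332). These counts thus do not settle whether the numbers pair the mice of some groups. With the replicate block, 5 members were called at ORM+1 h and 3 at HC zt15 on NC ad lib (5.92% and 12.1% of all genes), and Dio3 at HC zt15 on HFS ad lib had an adjusted p of 0.055. With the replicate block the Dio2 to Dio3 ratio differed by 3.07 (adjusted p = 0.094), 1.75 (0.19) and 2.77 (0.094) at ORM+1 h and by -1.18 (0.12) at ORM+12 h on HFS TRF, where exact paired tests of 6 or 5 pairs have few arrangements.

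Leaving out 1 mouse at a time, the members called, with the range of the share of all genes called in these fits, ranged from 1 to 5 (ORM+1 h, NC ad lib, 4.27% to 6.56%), 1 to 2 (ORM+1 h, HFS ad lib, 0.634% to 2.06%), 2 to 2 (ORM+1 h, HFS TRF, 1.74% to 2.81%), 0 to 0 (ORM+12 h, HFS ad lib, 0.0% to 2.3%), 0 to 2 (ORM+12 h, NC ad lib, 0.00332% to 0.826%), 0 to 2 (ORM+12 h, HFS TRF, 0.0232% to 3.38%), 1 to 2 (HC zt15, NC ad lib, 9.64% to 12.0%), 1 to 4 (HC zt15, HFS ad lib, 8.09% to 10.9%), 4 to 6 (HC zt15, HFS TRF, 11.5% to 14.2%), 0 to 1 (HFS ad lib against NC ad lib, 0.0% to 6.29%), 1 to 3 (HFS TRF against NC ad lib, 0.0% to 9.03%) and 0 to 1 (difference between diets at ORM+12 h, 0.0% to 4.18%). The ratio at ORM+12 h on HFS TRF ranged from -1.75 to -1.14. The calls of Dio2, of Crym and of Ncoa1 held in every such fit, as did Dio3 at HC zt15 on HFS TRF. Thra at ORM+1 h on NC ad lib also had an adjusted p of 0.068 with genes of at least 1 count. Without HFS TRF HC zt3 replicates 5 and 6, 3 instead of 2 members were called at ORM+1 h (3.04% of all genes) and 5 instead of 4 at HC zt15 (14.1%). Dio3 rested on the fewest counts, a median of 87 per mouse, and counting error was not separated from the spread between mice.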

Other observations

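The clock genes Per1, Per2, Per3, Nr1d1, Nr1d2, Bmal1, Dbp and Ciart, read as a check of the time labels, gave 6 higher and 1 lower at HC zt15 against HC zt3 on NC ad lib, 4 and 1 on HFS ad lib, and 6 and 1 on HFS TRF. At ORM+1 h, 5 of 8 were higher on NC ad lib, 1 of 8 on HFS ad lib and 3 of 8 on HFS TRF, Per1 among them on each diet.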
